A study of Ixodes ricinus with 9 samples.

Results

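The comparison described here set the midguts of *Ixodes ricinus* females that had received double-stranded RNA (dsRNA) against a metalloprotease beside those of females that had received dsRNA against GFP, a jellyfish protein with no tick counterpart. It covers 6 of the 9 midgut libraries of the series, 3 from the metalloprotease group and 3 from the GFP control group, and all 28510 genes of the count table. The other 3 libraries came from ticks injected with dsRNA against antigen p23 and enter only the last comparison and an alternative fit of all 9 libraries. Unfed adult females were injected, fed on bovine blood through an artificial membrane system and dissected on feeding day 7, and every group therefore shared the injection, the bovine blood and the day. Each library was made from a pool of the midguts of 3 ticks, so a value per pool is an average over ticks, and 3 pools a side is the replication throughout. Reads of *I. ricinus* were assigned by the authors to genes of a related tick, *I. persulcatus*, whose locus tags (HPB47) and gene names are used here. By the RT-qPCR of the study the targeted transcript was only partly reduced in the midgut, which limits the group as a model of a midgut without the protein.

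Ticks take a single large blood meal in each stage and digest it slowly, inside the digestive cells of the midgut, in acidic vesicles where aspartic and cysteine proteases, legumains and carboxypeptidases break haemoglobin down step by step. The same tissue absorbs amino acids, lipids and iron, handles large amounts of free haem, and in the feeding female also makes yolk precursor and lipid carrier proteins for the eggs. The targeted protein belongs to the reprolysins (peptidase family M12B), secreted or membrane-anchored zinc metallopeptidases that include the ADAM and ADAMTS proteins and the snake venom metalloproteases. Reprolysins of tick saliva have been linked to the cleavage of fibrin and to the completion of the blood meal. RNA interference, the method of silencing, uses injected dsRNA that is diced into short RNAs, which guide argonaute proteins to the matching transcript.

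The 6 libraries held between 3306565 and 9430607 assigned reads, with metalloprotease pool 3 by far the deepest, and between 9410 and 10988 genes had at least 1 count. GFP control pool 2 and metalloprotease pool 1 stood apart from the other 4 pools, whichever group these belonged to. On the first principal component of log2 CPM, the counts of a gene scaled to the size of its library, which held 46.2% of the variance, they lay at 45.9 and 57.2, and the other pools lay between −30.8 and −14.0. They were the 2 highest pools for 1432 of the 6786 tested genes (21.1%) and the 2 lowest for 1259 (18.6%). Because 1 of these pools stood in each group, their spread entered both arms, and values for the main lists and genes are given below with all 6 pools and without both of these, an alternative chosen after the data were seen. Markers of the digestive midgut were present in every pool, with cathepsin L (HPB47_012847) at 285 CPM or more and soma ferritin (HPB47_026848) at 2302 CPM or more. Muscle transcripts of the wall and attached tissue summed to 1408 to 3948 CPM, nerve transcripts to 594 to 872 CPM and germ line transcripts to 588 to 1112 CPM, with overlapping groups in each case. Cuticle protein transcripts summed to 349 to 2435 CPM, also with overlapping groups. In a bulk sample fewer cells of a type and less RNA per cell cannot be told apart. Salivary gland histamine-binding lipocalins, by contrast, summed to 1.28 CPM at most, but only 1 of 6 such genes had a count. Vitellogenin, taken also as a marker of fat body, was among the transcripts with the highest CPM and is given below with the lipid carriers. How much fat body the pools carried was not tested. The muscle sum was lowest in metalloprotease pool 1 and GFP control pool 2, at 1408 and 2053 CPM. What sets these 2 pools apart was not tested.

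**Figure D1:**
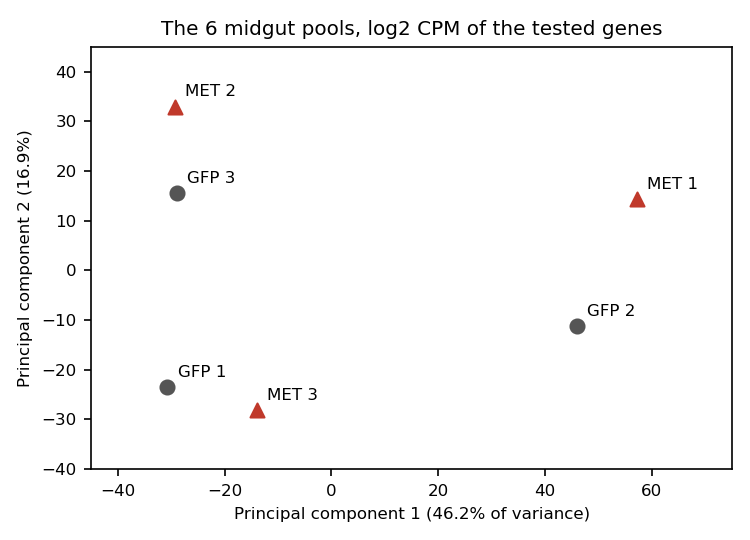
Principal components 1 (horizontal axis, 46.2% of variance) and 2 (vertical axis) of log2 CPM over the tested genes, with 1 point for each pool, grey circles for the GFP control (GFP) and red triangles for the metalloprotease group (MET). GFP control pool 2 and metalloprotease pool 1 lie at 45.9 and 57.2 on the horizontal axis, and the other 4 pools lie below 0.

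No file pairs the dsRNA target with a gene of the *I. persulcatus* annotation, so the silencing was looked at over the whole family. Of 20 genes with a reprolysin or ADAM cysteine-rich domain, 9 had no count in any of the 6 pools, 11 had at least 1 and 6 were tested. None of the 6 reached an unadjusted p of 0.05, their groups overlapped in every case, and 1 had a positive and 5 a negative log2 fold change. The family's median log2 fold change was −0.45, and ran from −0.59 without GFP control pool 1 to −0.0057 without GFP control pool 2, with −0.28 without both pools that stood apart.. The member with the highest mean CPM was an ADAM family protein (HPB47_022154), with 24.1, 9.86 and 28.8 CPM in the control and 45.5, 9.26 and 34.4 CPM in the metalloprotease pools. Another ADAM family member (HPB47_014561) had 16.1, 6.57 and 21.2 CPM in the control and 6.84, 13.9 and 10.02 CPM in the metalloprotease pools. The 3 tested ADAMTS proteins are of the secreted kind that acts on the extracellular matrix. HPB47_016042 had 11.9, 6.57 and 6.61 CPM in the control and 6.601, 4.94 and 5.92 CPM in the metalloprotease pools. For HPB47_008429 the levels were 3.22, 9.86 and 10.9 CPM in the control and 7.07, 3.704 and 7.4 CPM in the metalloprotease pools. HPB47_009081 was dominated by a single pool, with 2.23, 25.2 and 2.64 CPM in the control and 10.6, 1.54 and 3.42 CPM in the metalloprotease pools. The last tested member, HPB47_009838, had 2.48, 17.5 and 3.64 CPM in the control and 10.8, 4.32 and 3.42 CPM in the metalloprotease pools, again with its highest level in GFP control pool 2. Summed over the family, reprolysin transcripts came to 61.7, 77.98 and 74.04 CPM in the control and 90.3, 38.9 and 66.1 CPM in the metalloprotease pools. A reduction of the family's transcripts was therefore not detectable in these pools, and which member, if any, is the ortholog of the target was not tested. Of the other metallopeptidases, 1 of 13 tested neprilysin-like M13 peptidases (HPB47_021016) was lower at an unadjusted p of 0.05, against 0.693% of all tested genes. Its levels were 5.95, 8.77 and 6.28 CPM in the control and 1.89, 4.01 and 3.19 CPM in the metalloprotease pools, which did not overlap.

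Over all genes, 6786 of the 12788 with a count in these pools had enough counts to be tested. None differed at an adjusted p of 0.05 by the edgeR quasi-likelihood test (0% of tested genes), and the smallest adjusted p was 1.00. DESeq2 and limma-voom also called none. With a threshold of 0.05 on the unadjusted p, edgeR found 50 genes higher (0.737% of tested genes) and 47 lower (0.693%) after metalloprotease silencing, together 1.43% of tested genes. DESeq2 found 182 genes at that unadjusted threshold, 104 higher and 78 lower, and limma-voom 111, 51 higher and 60 lower. In 183 tested genes (2.7%) all 3 metalloprotease pools lay above all 3 GFP control pools, and in 202 (2.98%) all 3 lay below. Among the 50 higher genes 40 had pools that did not overlap, and among the 47 lower genes 38. The quartiles of the log2 fold change over tested genes were −0.25 and 0.23, with a median standard error (SE) of 0.44 on the log2 scale, and 175 genes were at least 2-fold higher and 161 at least 2-fold lower by their estimate. The log2 fold change was positive in 3354 tested genes and negative in 3432, which is the baseline for the counts of positive and negative members given below. The counts of genes at an unadjusted p of 0.05 depended on single pools. Without GFP control pool 2 they were 147 higher and 97 lower, and without metalloprotease pool 1 they were 106 and 81. Leaving out GFP control pool 1 gave 31 and 37, GFP control pool 3 gave 76 and 39, metalloprotease pool 2 gave 65 and 82, and metalloprotease pool 3 gave 47 and 88. With both pools that stood apart left out, 142 were higher and 111 lower, and again none passed the adjustment. No single gene below is therefore called changed, and the levels are given as a description. Below, log2 fold changes are given ± SE, and a gene is said to be higher or lower at the unadjusted threshold where its edgeR p before adjustment was 0.05 or less.

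**Figure D2:**
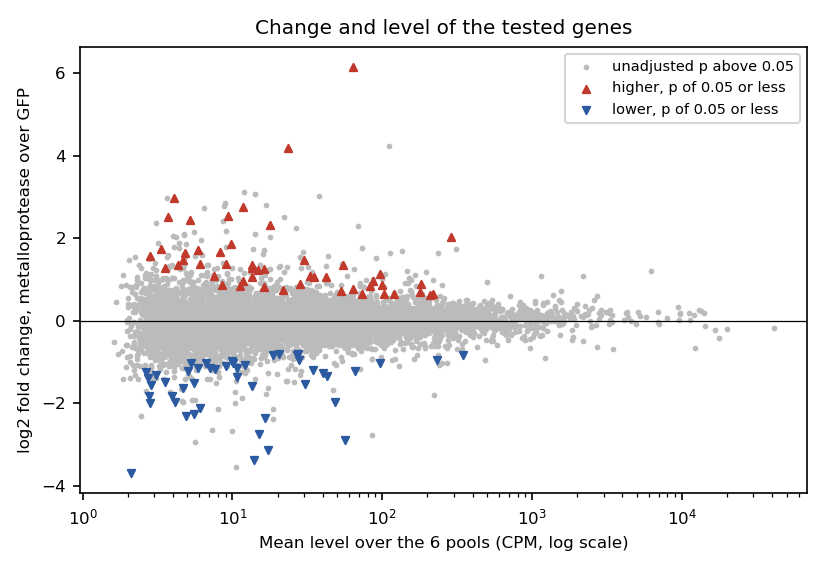
Log2 fold change of metalloprotease over GFP control (vertical axis) against the mean level over the 6 pools in CPM (horizontal axis, log scale), with 1 point for each of 6786 tested genes. Red triangles are the 50 genes higher and blue triangles the 47 genes lower at an unadjusted p of 0.05 or less, none of which passed the adjustment for multiple tests.

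Enzymes of methionine, cysteine and folate metabolism had higher levels in all 3 metalloprotease pools for 7 of 22 tested genes. Methionine supplies the methyl groups of the cell as S-adenosylmethionine, and the pathway recovers or breaks down what is left, as homocysteine, cysteine and methylthioadenosine, with folates carrying single carbons. Of 37 genes in this list 22 were tested, of which 4 were higher and none lower at an unadjusted p of 0.05, against 0.737% of all tested genes, and 7 were above the control pools without overlap, against 2.7% (1 lay below, against 2.98%). The median log2 fold change of the list was 0.38, against −0.0048 for all tested genes, with 15 members positive and 7 negative. With metalloprotease pool 3 thinned to the depth of the others, 6 members were above without overlap. The list was chosen with earlier results of these data known, and HPB47_013115 and HPB47_005701, both among the 4, are loci of the same enzyme. These shares therefore describe the list and are no test of it.

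Acireductone dioxygenase carries out a late oxidation of the methionine salvage cycle, which rebuilds methionine from the methylthio group left over by polyamine synthesis. The gene HPB47_013115 had 10.4, 12.2 and 5.62 CPM in the control and 19.1, 30.6 and 19.1 CPM in the metalloprotease pools. Every metalloprotease pool was above every control pool, with a log2 fold change of 1.27 ± 0.41, and the unadjusted p stayed at 0.05 or less in 15 of the 16 alternative settings. Another locus for the enzyme, HPB47_005701, had 14.9, 21.2 and 23.8 CPM in the control and 30.2, 51.2 and 29.1 CPM in the metalloprotease pools. Here too the groups did not overlap (log2 fold change 0.88 ± 0.37). Since 7 further genes in the table bear the name and were not tested, reads may be split between loci. Without the pools that stood apart the log2 fold changes were 1.61 for HPB47_013115 and 1.06 for HPB47_005701. Methylthioribulose-1-phosphate dehydratase (HPB47_008903), the enzyme that acts earlier in the same cycle, had means of 36.4 CPM in the control and 34.96 CPM in the metalloprotease group (log2 fold change −0.06 ± 0.37).

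Cysteine dioxygenase (HPB47_000961) oxidises cysteine to its sulfinate, the entry to cysteine breakdown and taurine synthesis. Its levels were 45.1, 42.01 and 90.2 CPM in the control and 108, 143 and 93.2 CPM in the metalloprotease pools. The lowest metalloprotease pool lay just above the highest control pool, and the log2 fold change was 0.96 ± 0.38, or 0.81 and no longer past the unadjusted threshold without the pools that stood apart. Cystathionine gamma-lyase (HPB47_023137), which releases cysteine from cystathionine, was read at a few CPM, with 1.24, 3.65 and 2.97 CPM in the control and 9.43, 5.25 and 4.67 CPM in the metalloprotease pools. Its groups did not overlap, but the log2 fold change of 1.28 ± 0.57 did not reach the threshold. Betaine-homocysteine methyltransferase (HPB47_011495), which returns homocysteine to methionine with betaine as the donor, had 45.4, 101 and 215 CPM in the control and 268, 221 and 329.7 CPM in the metalloprotease pools. All 3 metalloprotease pools were above the controls, by a narrow gap between 215 and 221 CPM, and the log2 fold change was 1.18 ± 0.53. These 2 genes and the cyclo-ligase below fell outside the rule for named genes and were chosen after their values were seen.

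In the folate branch, 10-formyltetrahydrofolate dehydrogenase (HPB47_022333), which removes formyl groups from the folate pool, had 1.24, 0 and 1.65 CPM in the control and 3.06, 14.2 and 4.44 CPM in the metalloprotease pools. The control counts were 5, 0 and 5 reads, and the log2 fold change of 2.97 ± 1.08 rests on them. The enzyme 5-formyltetrahydrofolate cyclo-ligase (HPB47_000688), which recovers a stored folate, had 49.3, 56.6 and 50.6 CPM in the control and 75.2, 79.9 and 59.2 CPM in the metalloprotease pools, without overlap (log2 fold change 0.45 ± 0.27). Dihydrofolate reductase (HPB47_013414) was the member with all 3 metalloprotease pools below the controls, at means of 51.7 CPM and 39.6 CPM (log2 fold change −0.38), and this order was lost under DESeq2 size factors. The members with the highest CPM overlapped between groups. Serine hydroxymethyltransferase (HPB47_017626), the main entry of single carbons, had 686, 460.0 and 1806 CPM in the control and 899, 1414 and 837 CPM in the metalloprotease pools. Cytoplasmic C-1-tetrahydrofolate synthase (HPB47_026563) had 261, 182 and 468 CPM in the control and 198, 449 and 320.0 CPM in the metalloprotease pools. Adenosylhomocysteinase (HPB47_006021), which clears the product of methylation reactions, had 309, 241 and 368 CPM in the control and 244, 277 and 384 CPM in the metalloprotease pools. For all of these the log2 fold change lay between −0.02 and 0.09. Summed over the list, the levels were 2426, 2063 and 4740.0 CPM in the control and 3081, 3885 and 3789 CPM in the metalloprotease pools, which overlapped. The list's median moved between 0.10 without metalloprotease pool 2 and 0.85 without GFP control pool 3, and was 0.18 without both pools that stood apart.

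**Figure D3:**
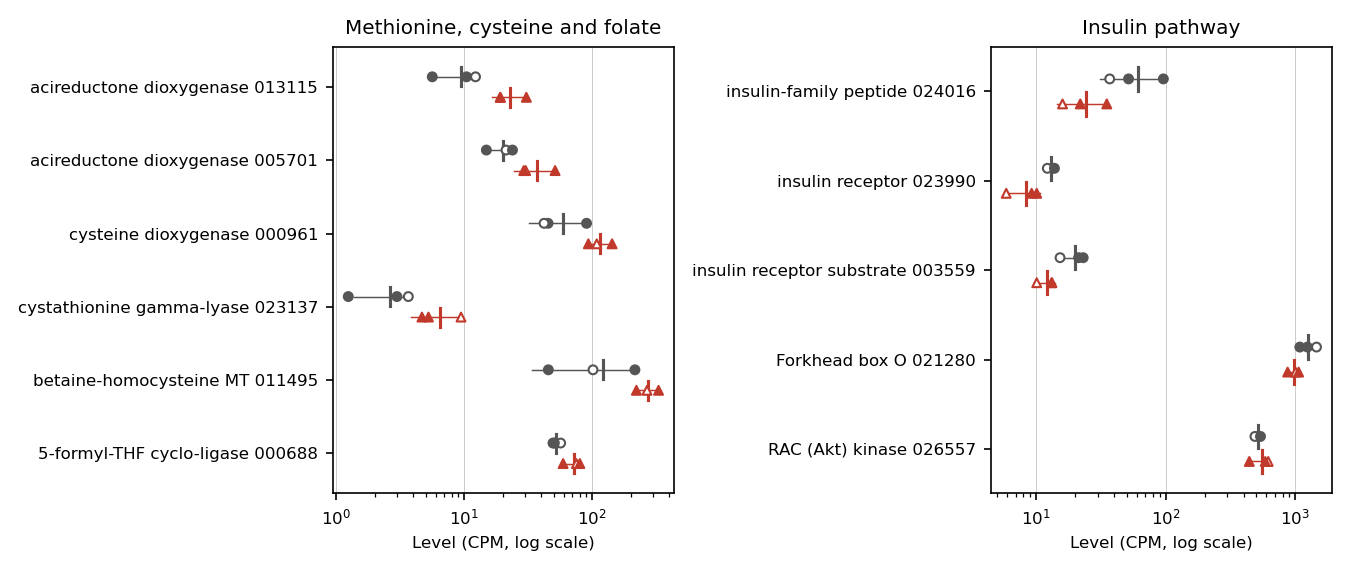
Level in CPM (horizontal axis, log scale) of 6 methionine, cysteine and folate enzymes (left) and 5 insulin pathway genes (right) in each pool, with the gene number after the name. Grey circles are GFP control pools and red triangles metalloprotease pools, open symbols are GFP control pool 2 and metalloprotease pool 1, vertical ticks are group means and lines span 1 SD. In the left panel every triangle lies to the right of every circle of its gene, and in the right panel all but those of the RAC kinase lie to the left.

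The insulin pathway was the list with the largest share of members below the controls, and was also chosen with earlier results of these data known. Insulin-like peptides bind a receptor tyrosine kinase, which through insulin receptor substrate, phosphatidylinositol 3-kinase and RAC (Akt) kinase keeps the transcription factor Forkhead box O (FOXO) out of the nucleus, and in arthropods this signal ties feeding to growth and yolk synthesis. Of 13 genes 8 were tested, 1 was lower at an unadjusted p of 0.05 against 0.693% of all tested genes, and 4 lay below the controls without overlap against 2.98%. The list's median log2 fold change was −0.23, and ran from −0.50 without metalloprotease pool 2 to −0.22 without GFP control pool 1, with −0.14 without both pools that stood apart. The summed level of the list was 1894, 2071 and 1808 CPM in the control and 1707, 1438 and 1741 CPM in the metalloprotease pools, without overlap, but without FOXO, which made up most of it and was left out after its values were seen, the sums were 649, 609.6 and 721 CPM in the control and 700.0, 562 and 677 CPM in the metalloprotease pools and overlapped.

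The ligand, an insulin/IGF/relaxin family gene (HPB47_024016), had 51.8, 37.1 and 96.2 CPM in the control and 16.03, 35.2 and 21.97 CPM in the metalloprotease pools. The highest metalloprotease pool was just below the lowest control pool, and the log2 fold change was −1.34 ± 0.46, and −1.37 without the pools that stood apart. The insulin receptor (HPB47_023990) had 13.4, 12.2 and 13.9 CPM in the control and 5.89, 9.26 and 10.1 CPM in the metalloprotease pools. Its pools did not overlap, with a log2 fold change of −0.64 ± 0.36. For insulin receptor substrate 1 (HPB47_003559), the docking protein below the receptor, the levels were 21.3, 15.3 and 23.1 CPM in the control and 10.1, 13.3 and 13.2 CPM in the metalloprotease pools. These did not overlap either (log2 fold change −0.70 ± 0.33). FOXO (HPB47_021280) was the most abundant member also per kilobase of coding length, at 487 CPM per kb against 38.5 for the ligand and 2.403 for the receptor. It had 1245, 1462 and 1087 CPM in the control and 1007, 876 and 1064 CPM in the metalloprotease pools, with a log2 fold change of −0.36 ± 0.25, and under DESeq2 size factors the groups overlapped. The kinases between receptor and FOXO overlapped between groups. RAC kinase (HPB47_026557) had 521, 489 and 540.4 CPM in the control and 619.8, 443 and 588 CPM in the metalloprotease pools and a log2 fold change of 0.09 ± 0.25. For 3-phosphoinositide-dependent kinase 1 (HPB47_001369) and a phosphatidylinositol 3-kinase subunit (HPB47_011451) the log2 fold changes were 0.10 and −0.09. For a further receptor gene, annotated as an insulin-like peptide receptor (HPB47_008153) but carrying a ligand-binding domain of another receptor family beside its kinase domain, the levels were 9.92, 7.49 and 12.2 CPM in the control and 3.301, 3.09 and 0.683 CPM in the metalloprotease pools. The gene was also measured by RT-qPCR in the study, which names it guanylate cyclase. Whether it belongs to the insulin pathway was not tested. It was kept out of the list after its values were seen, and its log2 fold change was −2.11 ± 0.64. In 14 of 15 alternative settings its unadjusted p stayed at 0.05 or less.

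Genes of lipid synthesis were mixed. Acetyl-CoA carboxylase 1 (HPB47_011995) makes malonyl-CoA and thereby commits carbon to fatty acids. It had 117, 63.4 and 95.5 CPM in the control and 27.6, 58.03 and 33.7 CPM in the metalloprotease pools. The groups did not overlap and the log2 fold change was −1.21 ± 0.39 with and without the pools that stood apart. An elongase of very long chain fatty acids (HPB47_014202) had 5.46, 13.5 and 8.59 CPM in the control and 5.19, 4.01 and 3.76 CPM in the metalloprotease pools, also without overlap (log2 fold change −1.09 ± 0.48). The fatty acid synthase gene HPB47_018998 had 113, 489 and 391 CPM in the control and 275, 182 and 211 CPM in the metalloprotease pools, and its groups overlapped. Acyl-CoA delta-9 desaturase (HPB47_000074), which puts the first double bond into stearate and had the highest CPM of the list, had 4872, 2417 and 4833 CPM in the control and 2562, 5172 and 4607 CPM in the metalloprotease pools. Over the 14 tested members 1 was lower and none higher at an unadjusted p of 0.05, against 0.693% and 0.737% of all tested genes, and 2 lay below without overlap, against 2.98%. The list's median log2 fold change was −0.34, and ran from −0.59 without GFP control pool 1 to −0.0046 without GFP control pool 2, with −0.14 without both pools that stood apart. Among lipases and sphingolipid enzymes 2 of 20 tested were higher at the unadjusted threshold, against 0.737% of all tested genes. Lysosomal acid glucosylceramidase (HPB47_022912), which cleaves glucosylceramide, had 10.7, 8.95 and 6.61 CPM in the control and 13.9, 26.5 and 14.5 CPM in the metalloprotease pools (log2 fold change 1.05 ± 0.41). A pancreatic lipase-related protein (HPB47_009100) had 1.24, 3.47 and 3.64 CPM in the control and 17.2, 3.704 and 26.98 CPM in the metalloprotease pools, where metalloprotease pool 2 was only just above the highest control.

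The lipid carriers were among the transcripts with the highest CPM and differed widely between pools of 1 group. Vitellogenin (HPB47_012779), the yolk precursor, had 49431, 17249 and 63997 CPM in the control and 17577, 67657 and 30757 CPM in the metalloprotease pools. Apolipophorin (HPB47_020504), the lipid shuttle of the haemolymph, had 27480.1, 7702 and 28484 CPM in the control and 10378, 30391 and 14711 CPM in the metalloprotease pools. An NPC1-like sterol transporter (HPB47_006008) had 27216, 1462 and 16052 CPM in the control and 2142, 11942 and 14314 CPM in the metalloprotease pools. In each of these 3 genes GFP control pool 2 and metalloprotease pool 1 were the lowest pools, and the log2 fold changes of −0.17, −0.20 and −0.66 were smaller than their SE of 0.63, 0.59 and 1.00. Summed over the lipid binding and transport list the levels were 108026, 29116 and 112481 CPM in the control and 33529, 113887 and 65091 CPM in the metalloprotease pools. The member at an unadjusted p of 0.05 was a low-level CRAL/TRIO domain protein, motile sperm domain-containing protein 2 (HPB47_001175), with 2.48, 1.64 and 3.31 CPM in the control and 5.42, 7.72 and 7.29 CPM in the metalloprotease pools (log2 fold change 1.47 ± 0.48).

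**Figure D4:**
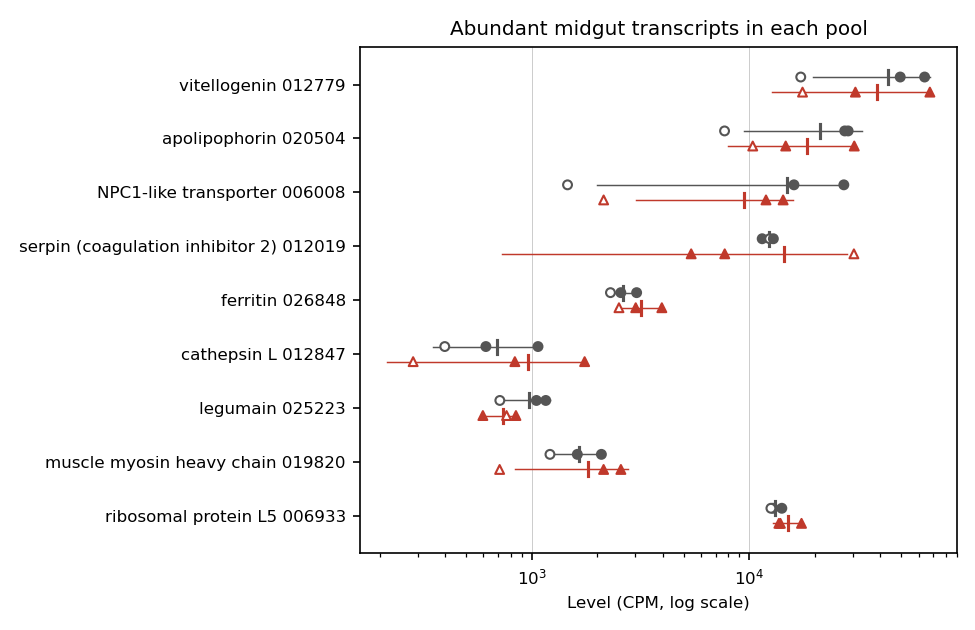
Level in CPM (horizontal axis, log scale) of 9 abundant midgut transcripts in each pool, with grey circles for GFP control and red triangles for metalloprotease pools, open symbols for GFP control pool 2 and metalloprotease pool 1, ticks for group means and lines for 1 SD. For vitellogenin, apolipophorin and the NPC1-like transporter the open symbols are the lowest of their groups, and groups overlap for each gene.

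The main proteases that digest the blood meal overlapped between groups. Cathepsin L (HPB47_012847) had 1069.6, 399 and 616 CPM in the control and 285, 837 and 1752 CPM in the metalloprotease pools (log2 fold change 0.46 ± 0.65). The main legumain (HPB47_025223), an asparagine-specific peptidase that also activates other proteases, had 1161, 714 and 1051 CPM in the control and 767, 847 and 597 CPM in the metalloprotease pools (log2 fold change −0.41 ± 0.29). Another legumain (HPB47_028387) was uneven, with 6.2, 7.85 and 56.8 CPM in the control and 25.5, 109.6 and 209 CPM in the metalloprotease pools. Cathepsin D (HPB47_007140), the aspartic protease that makes the first cuts in haemoglobin, had 69.9, 32.3 and 124 CPM in the control and 45.7, 64.8 and 40.3 CPM in the metalloprotease pools (log2 fold change −0.58 ± 0.49). Per kilobase of coding length cathepsin L stood at 953 CPM per kb, the legumain at 559.6 and cathepsin D at 54.6. Of 39 tested papain-type, legumain, aspartic, serine carboxypeptidase and trypsin-like genes none reached an unadjusted p of 0.05. A papain family gene at a few CPM (HPB47_019066) was the 1 of these 39 below the controls without overlap, against 2.98% of all tested genes. It had 4.96, 5.11 and 5.29 CPM in the control and 3.301, 3.09 and 1.02 CPM in the metalloprotease pools. Serine carboxypeptidases had the highest median log2 fold change of all lists with at least 5 tested members, 0.67 over 9 genes, but 4 of the 9 were negative. With any 1 pool left out the median was −0.0065 to 0.61, lowest without metalloprotease pool 2, and it was −0.22 with no filter on low counts.

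Among protease inhibitors, 1 of 20 tested serpins was lower at an unadjusted p of 0.05, against 0.693% of all tested genes. The gene model HPB47_005940, annotated as leukocyte elastase inhibitor but fused with a ribosomal protein L4 domain, had 56.8, 20.8 and 57.5 CPM in the control and 13.7, 15.7 and 17.3 CPM in the metalloprotease pools. GFP control pool 2 was close to the metalloprotease pools, and the log2 fold change was −1.53 ± 0.44. Serpin B3 (HPB47_002856) was the 1 of the 20 above without overlap, against 2.7% of all tested genes. It had 248, 279 and 285 CPM in the control and 334, 488 and 315 CPM in the metalloprotease pools (log2 fold change 0.49 ± 0.28). The most abundant serpin, intracellular coagulation inhibitor 2 (HPB47_012019), a relative of the horseshoe crab protein that stops clotting, had 11469, 12413 and 12909.8 CPM in the control and 30278, 7715 and 5409.5 CPM in the metalloprotease pools. Its spread was set by metalloprotease pool 1. Among Kunitz inhibitors, cystatins and TIL domain inhibitors none of 11 tested genes reached the threshold.

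Acidification, iron and haem handling were described with their own lists. The vacuolar proton pump acidifies the digestive vesicles. Its subunit A (HPB47_020226) had 162, 185 and 197 CPM in the control and 305, 228 and 276 CPM in the metalloprotease pools (log2 fold change 0.57 ± 0.26). Subunit B (HPB47_007644) had 369.7, 369 and 369 CPM in the control and 479, 405 and 475 CPM in the metalloprotease pools (log2 fold change 0.30 ± 0.24), and subunit d (HPB47_007153) had 119, 96.1 and 93.9 CPM in the control and 163, 149 and 136 CPM in the metalloprotease pools (log2 fold change 0.53 ± 0.26). In all 3 of these genes, of 13 tested, the metalloprotease pools lay above the controls, against 2.7% of all tested genes. The summed level of the list was 941, 869 and 944 CPM in the control and 1172, 1073 and 1204 CPM in the metalloprotease pools. These 3 genes made up most of that sum, so its separation adds nothing to theirs. None of the 13 tested members reached an unadjusted p of 0.05, and 6 were negative. The pump's median log2 fold change was 0.02, and ran from 0.02 without metalloprotease pool 2 to 0.25 without metalloprotease pool 1, with 0.14 without both pools that stood apart. The iron store soma ferritin (HPB47_026848) had 2569, 2302 and 3037 CPM in the control and 2519, 3008 and 3966 CPM in the metalloprotease pools, and another ferritin (HPB47_028185) had 1163, 643 and 1541 CPM in the control and 898, 1157 and 1391 CPM in the metalloprotease pools. Both overlapped. A gene annotated as a haem exporter of the FLVCR family with a destabilase domain (HPB47_005396) had 64.7, 31.2 and 24.8 CPM in the control and 6.601, 14.2 and 27.2 CPM in the metalloprotease pools (log2 fold change −1.32 ± 0.59). Haem peroxidases, which build cross-links with hydrogen peroxide, had a median log2 fold change of −0.82 over 5 tested genes, but −0.13 with no filter on low counts, −0.08 with at least 10 counts in each library and −0.08 by DESeq2. The member with the lowest estimate, a peroxidasin (HPB47_000834), had 3.72, 6.76 and 2.31 CPM in the control and 2.59, 1.23 and 1.14 CPM in the metalloprotease pools (log2 fold change −1.39 ± 0.63). Another peroxidasin (HPB47_023908) had 14.6, 26.7 and 18.5 CPM in the control and 8.02, 16.05 and 10.02 CPM in the metalloprotease pools (log2 fold change −0.82 ± 0.41). Their summed level was 65.2, 72.5 and 74.04 CPM in the control and 53.8, 59.9 and 47.4 CPM in the metalloprotease pools, which did not overlap, though single members did. Without both pools that stood apart the list's median was −0.30. Among 16 antioxidant enzymes 13 were positive, and 1 was higher at the threshold, against 0.737% of all tested genes. This superoxide dismutase (HPB47_004168) had 4.71, 2.56 and 4.63 CPM in the control and 16.5, 3.395 and 17.4 CPM in the metalloprotease pools, where metalloprotease pool 2 lay within the controls.

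Cytosolic sulfotransferases, which attach sulfate to hormones and foreign compounds and form a very large family in ticks, had 38 tested members of 187. None reached an unadjusted p of 0.05 and in none did the pools separate, but 29 of the 38 had a positive log2 fold change and the median was 0.55. The summed level was 4183, 2695 and 4113 CPM in the control and 4251, 5504 and 7764 CPM in the metalloprotease pools, which did not overlap though the lowest metalloprotease pool was barely above the highest control pool. The most abundant, HPB47_019895, made up a large part of that sum in metalloprotease pool 1, so the separation of the sum leans on it. It had 1358, 312 and 524 CPM in the control and 1733, 1099 and 1829 CPM in the metalloprotease pools (log2 fold change 1.09 ± 0.54), and its own groups overlapped. HPB47_027299 was uneven among the metalloprotease pools, with 35.96, 33.97 and 30.7 CPM in the control and 13.2, 108 and 218 CPM in the metalloprotease pools (log2 fold change 1.75 ± 0.81). A 3-alpha-hydroxysteroid sulfotransferase (HPB47_008140) had 0, 0.365 and 7.602 CPM in the control and 5.42, 14.5 and 43.7 CPM in the metalloprotease pools (log2 fold change 3.11 ± 1.38). Reads of close paralogs may have been split or dropped in the authors' counting, and these values are uncertain for that reason. The list's median was 0.27 without metalloprotease pool 3, 0.89 without GFP control pool 3 and 0.57 without both pools that stood apart.

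Other detoxifying families gave single genes. In the carboxylesterase family 8 of 13 tested genes were negative. A single member was higher at the threshold, against 0.737% of all tested genes, and above without overlap, against 2.7%. This gene, annotated as neuroligin-2 (HPB47_012061), had the smallest p of all tested genes. It had 3.72, 2.37 and 2.97 CPM in the control and 7.31, 22.5 and 31.5 CPM in the metalloprotease pools (log2 fold change 2.76 ± 0.59). A cytochrome P450 annotated as 3A5 (HPB47_025175), lay below without overlap, with 17.1, 20.1 and 25.8 CPM in the control and 14.4, 5.86 and 13.9 CPM in the metalloprotease pools (log2 fold change −0.87 ± 0.42). Over 20 tested P450 genes 1 was lower at the threshold, against 0.693% of all tested genes, and none higher. In this list 2 genes lay below without overlap, against 2.98%. Of 14 aldehyde dehydrogenases 9 were negative (median −0.07) and 2 were higher, against 0.737% of all tested genes, HPB47_022333 of the folate branch and 2-aminomuconic semialdehyde dehydrogenase (HPB47_024631), an enzyme of tryptophan breakdown. The latter had 10.2, 3.65 and 3.97 CPM in the control and 18.2, 53.1 and 18.2 CPM in the metalloprotease pools, and its log2 fold change was 2.32 ± 0.62. Glutathione S-transferases did not separate in any of 11 tested genes, with the most abundant (HPB47_010204) at 10723, 1574 and 2980.3 CPM in the control and 1641, 7222 and 5612 CPM in the metalloprotease pools. Among 34 ABC transporters 1 lay below without overlap, against 2.98% of all tested genes. This multidrug resistance-associated protein (HPB47_022813) had 414, 254 and 300.4 CPM in the control and 53.8, 223 and 185 CPM in the metalloprotease pools (log2 fold change −1.07 ± 0.51).

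A pair of sodium-coupled transporter genes that lie next to each other were both higher at the unadjusted threshold. HPB47_027464, annotated as a GABA transporter, lies on the reverse strand of scaffold JABSTQ010009855.1 at 408748 to 431968 in the *I. persulcatus* BIME_Iper_1.3 assembly, and HPB47_027465, annotated as a proline transporter, at 463859 to 464350 on the same strand. HPB47_027464 had 3.97, 5.48 and 5.62 CPM in the control and 7.54, 20.99 and 10.7 CPM in the metalloprotease pools (log2 fold change 1.37 ± 0.49). HPB47_027465 had 2.48, 3.29 and 2.31 CPM in the control and 4.95, 16.05 and 6.03 CPM in the metalloprotease pools (log2 fold change 1.70 ± 0.58). Both had their highest level in metalloprotease pool 2 and no overlap. Whether both models are parts of 1 transcript was not tested. Among 31 amino acid and neurotransmitter transporters these were the 2 higher at the threshold, against 0.737% of all tested genes, and none was lower, against 0.693%. They were also the 2 above without overlap, against 2.7%. Of 74 major facilitator and sugar transporters 1 was higher, HPB47_025631, and 1 lower, sialin (HPB47_026089), against 0.737% and 0.693% of all tested genes. Sialin, which exports sialic acid and other anions from lysosomes, had 10.4, 8.04 and 5.95 CPM in the control and 3.77, 3.09 and 4.098 CPM in the metalloprotease pools (log2 fold change −1.14 ± 0.43). Another pair of consecutive genes, the RNA-binding proteins GRSF1 (HPB47_010184) and RBM12 (HPB47_010185), lies 370 bases apart on scaffold JABSTQ010011331.1, and both members were higher. HPB47_010184 had 163, 152 and 197 CPM in the control and 273, 266 and 264 CPM in the metalloprotease pools (log2 fold change 0.65 ± 0.25). HPB47_010185 had 95.2, 83.5 and 99.2 CPM in the control and 132, 160.5 and 146 CPM in the metalloprotease pools (log2 fold change 0.66 ± 0.26). These 2 pairs, 4 genes, were the neighbours found among the 97 genes, and each pair had the same direction.

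Receptors of cell adhesion and axon guidance, which guide and hold cells and nerve fibres, had 2 lower of 17 tested genes, against 0.693%, none higher, and 3 below the controls without overlap against 2.98% of all tested genes. Kin of IRRE-like protein 2 (HPB47_022790), an adhesion molecule of the immunoglobulin family, had 23.8, 16.4 and 20.2 CPM in the control and 8.49, 9.88 and 2.39 CPM in the metalloprotease pools (log2 fold change −1.57 ± 0.54). Contactin (HPB47_007133) had 4.46, 4.201 and 5.29 CPM in the control and 2.12, 2.78 and 1.82 CPM in the metalloprotease pools (log2 fold change −1.06 ± 0.47). The sax-3 homolog (HPB47_023597), a roundabout-type receptor, had 16, 25 and 9 counts in the control and 0, 3 and 1 counts in the metalloprotease pools. Another roundabout-type gene (HPB47_019737) went the other way, with 0, 12 and 0 counts against 36, 2 and 95. The nerve list itself had a median log2 fold change of −0.23 over 6 tested genes, with −0.36 without both pools that stood apart, none at the threshold, and its summed level overlapped between groups. Of 9 ligand-gated ion channels 1 was lower, a GABA receptor subunit (HPB47_024787), against 0.693% of all tested genes. It had 66.96, 27.6 and 75.03 CPM in the control and 15.1, 29.6 and 25.3 CPM in the metalloprotease pools (log2 fold change −1.27 ± 0.46), where GFP control pool 2 lay among the metalloprotease pools.

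A pair of enzymes of the lipid carrier of N-glycosylation had lower levels in all 3 metalloprotease pools. Polyprenol reductase (HPB47_006305) makes dolichol, the lipid on which the sugar chain is built, and had 12.2, 10.4 and 8.92 CPM in the control and 6.37, 4.94 and 2.85 CPM in the metalloprotease pools. The groups did not overlap (log2 fold change −1.17 ± 0.44). The Alg13 subunit of the UDP-N-acetylglucosamine transferase (HPB47_010658), which adds a further sugar to that lipid, had 10.4, 9.68 and 9.25 CPM in the control and 5.89, 4.01 and 3.42 CPM in the metalloprotease pools, likewise without overlap (log2 fold change −1.14 ± 0.41). Other members of the list had overlapping pools, among them the ALG2 mannosyltransferase (HPB47_010294, log2 fold change 0.24) and ribophorin I (HPB47_026706, log2 fold change −0.13). Over 26 tested genes of folding and glycosylation in the endoplasmic reticulum 2 were lower, against 0.693% of all tested genes, and none higher, with 16 of 26 negative. The same 2 were the members below without overlap, against 2.98%. Their median log2 fold change was −0.05, and ran from −0.16 without metalloprotease pool 2 to 0.15 without metalloprotease pool 1, with 0.04 without both pools that stood apart.

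Lists of protein synthesis and turnover had small positive medians, some of which turned negative without a single pool. Of 40 tested mitochondrial ribosomal proteins 32 had a positive log2 fold change, against 3354 of all 6786 tested genes. In this list 7 lay above the controls without overlap and none below, against 2.7% and 2.98% of all tested genes, and the median was 0.16. Protein S24 (HPB47_011710) had 104, 117 and 110.4 CPM in the control and 142, 136 and 165 CPM in the metalloprotease pools (log2 fold change 0.42 ± 0.25). Protein L43 (HPB47_028000) had 131, 124 and 106 CPM in the control and 152, 145 and 159.8 CPM in the metalloprotease pools (log2 fold change 0.34 ± 0.25). The 1 member at an unadjusted p of 0.05 was S33 (HPB47_022797), against 0.737% of all tested genes. It had 26.5, 34.5 and 21.2 CPM in the control and 48.8, 30.9 and 92.4 CPM in the metalloprotease pools, where metalloprotease pool 2 lay within the controls. The list's median was 0.10 without both pools that stood apart and 0.13 to 0.26 with any 1 pool left out. Of 49 cytosolic ribosomal proteins 29 were positive. Their median log2 fold change was 0.05, and ran from −0.10 without metalloprotease pool 3 to 0.18 without GFP control pool 3, with 0.08 without both pools that stood apart. Of 35 translation factors 27 were positive and 3 lay above without overlap, against 2.7%. The factors' median log2 fold change was 0.13, and ran from 0.04 without metalloprotease pool 3 to 0.21 without metalloprotease pool 1, with 0.10 without both pools that stood apart. Of 28 aminoacyl-tRNA synthetases, which load amino acids onto tRNA, 16 were positive. Their median log2 fold change was 0.10, and ran from −0.04 without GFP control pool 3 to 0.26 without GFP control pool 2, with 0.09 without both pools that stood apart. Deoxyhypusine synthase (HPB47_011079), which makes the modified residue that activates translation factor eIF5A, was outside that list and had 151, 166 and 174 CPM in the control and 239, 268 and 256 CPM in the metalloprotease pools (log2 fold change 0.63 ± 0.24). Of 31 proteasome subunits 25 were positive and 1 was higher at the threshold, against 0.737% of all tested genes, alpha type-7 (HPB47_006393), with 34.97, 32.9 and 52.6 CPM in the control and 63.9, 65.7 and 68.6 CPM in the metalloprotease pools (log2 fold change 0.72 ± 0.29). The proteasome median log2 fold change was 0.20, and ran from 0.05 without GFP control pool 2 to 0.62 without GFP control pool 3, with 0.05 without both pools that stood apart. In the respiratory chain 25 of 33 genes were positive. That list's median log2 fold change was 0.04, and ran from −0.18 without GFP control pool 2 to 0.32 without GFP control pool 3, with 0.04 without both pools that stood apart. The complex I subunit B7 (HPB47_009127) was the 1 of the 33 higher at the threshold, against 0.737% of all tested genes. It was also the 1 above without overlap, against 2.7%. Its levels were 68.4, 51.1 and 51.2 CPM in the control and 82.3, 93.5 and 93.2 CPM in the metalloprotease pools (log2 fold change 0.66 ± 0.27).

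**Figure D5:**
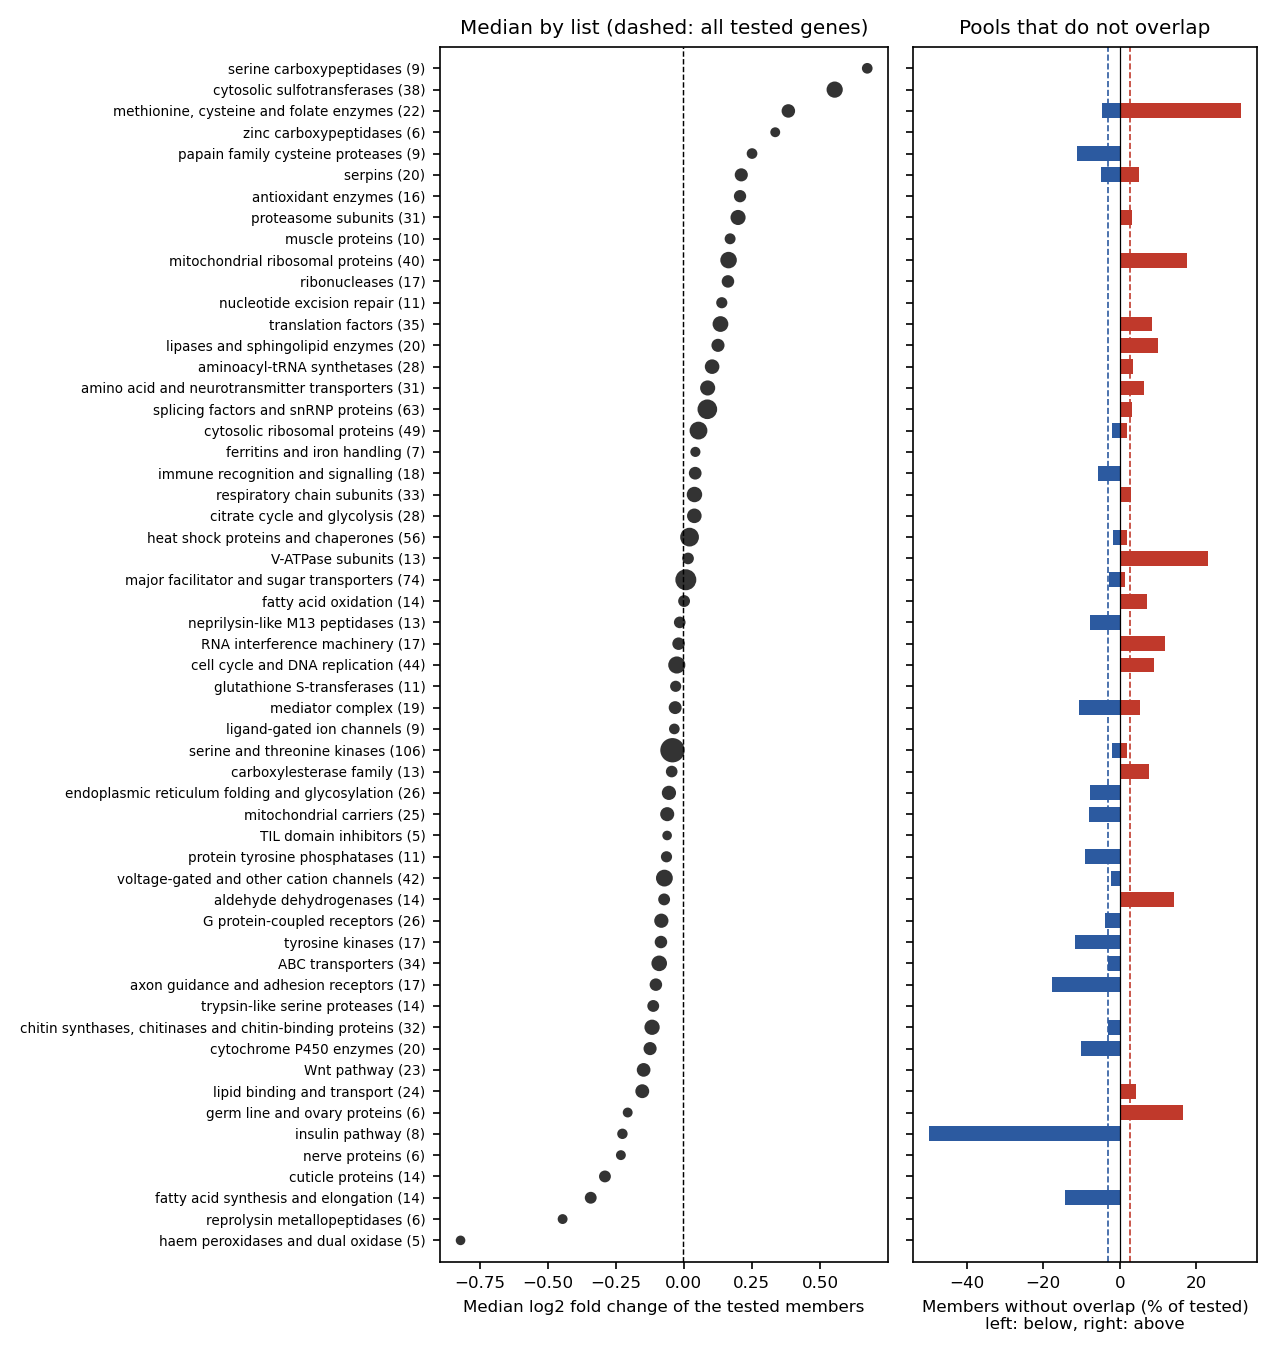
Median log2 fold change (left, horizontal axis) of each list with at least 5 tested members, whose number stands in brackets and sets the size of the point, with the median of all tested genes as a dashed line. The right panel gives the percentage of tested members whose 3 metalloprotease pools lie all above (red, to the right) or all below (blue, to the left) the 3 GFP control pools, with 2.7% and 2.98% for all tested genes as dashed lines.

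Transcription regulators were found in both directions. The Mediator complex, which links transcription factors to RNA polymerase II, had 1 higher and 2 lower of 19 tested genes, against 0.737% and 0.693% of all tested genes. Subunit 29 (HPB47_011553) had 10.2, 6.21 and 7.602 CPM in the control and 19.6, 15.7 and 11.3 CPM in the metalloprotease pools (log2 fold change 0.95 ± 0.39). Subunit 14 (HPB47_003182) had 3.72, 4.201 and 3.31 CPM in the control and 1.41, 1.54 and 1.71 CPM in the metalloprotease pools (log2 fold change −1.25 ± 0.49). The deadpan homolog (HPB47_011462), a basic helix-loop-helix repressor known from neural stem cells of *Drosophila*, had 87.04, 141 and 162 CPM in the control and 69.1, 53.7 and 69.7 CPM in the metalloprotease pools (log2 fold change −1.02 ± 0.32). The dpy-30 homolog (HPB47_024671), a core subunit of histone H3 lysine methyltransferase complexes, had 18.4, 22.6 and 26.8 CPM in the control and 58.9, 33.6 and 49.4 CPM in the metalloprotease pools (log2 fold change 1.07 ± 0.33). The U4/U6 spliceosome protein Prp31 (HPB47_004998) had 7.44, 10.4 and 6.28 CPM in the control and 15.6, 12.3 and 15.7 CPM in the metalloprotease pools (log2 fold change 0.85 ± 0.36). It was the 1 of 63 tested splicing genes higher at the threshold, against 0.737% of all tested genes. Among the 63, 2 lay above without overlap, against 2.7%, and 42 were positive with a median of 0.09. In the cell cycle list of 44 tested genes 2 were higher, against 0.737% of all tested genes, and 4 lay above without overlap, against 2.7%, but 24 of 44 were negative, with a median of −0.03. With metalloprotease pool 3 thinned 3 lay above and 1 below. Those above included proliferating cell nuclear antigen (HPB47_019809), the sliding clamp of replication, with 33.2, 58.8 and 59.2 CPM in the control and 59.2, 76.2 and 98.7 CPM in the metalloprotease pools (log2 fold change 0.63 ± 0.35). The other named models of that list carry fused annotations (HPB47_024157 and HPB47_004376) and are not assigned to a function here. In the RNA interference list 2 argonaute family genes of 17 tested lay above without overlap, against 2.7% of all tested genes, and 1 with metalloprotease pool 3 thinned. Of the 17 genes 9 were negative, with a median of −0.02. The argonaute-2 gene HPB47_007293 had 26.8, 25.8 and 33.4 CPM in the control and 36.1, 38.9 and 34.3 CPM in the metalloprotease pools (log2 fold change 0.35 ± 0.28), and Ago3 (HPB47_010996) had 32.2, 25.6 and 29.4 CPM in the control and 37.5, 40.4 and 36.8 CPM in the metalloprotease pools (log2 fold change 0.39 ± 0.27). A further argonaute gene (HPB47_016419) had 109.9, 41.3 and 48.6 CPM in the control and 21.5, 50.3 and 24.2 CPM in the metalloprotease pools (log2 fold change −1.06 ± 0.50).

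Immune recognition, heat shock and cuticle genes did not separate as groups. Of 18 tested immune genes none reached the threshold and 1 lay below the controls without overlap, against 2.98% of all tested genes. The Toll receptor HPB47_023216 had 112, 181 and 147 CPM in the control and 277, 166 and 203 CPM in the metalloprotease pools. Heat shock genes varied among single pools, with Hsp68 (HPB47_010377) at 362, 77.1 and 5.62 CPM in the control and 42.4, 1.85 and 21.3 CPM in the metalloprotease pools. GFP control pool 1 carried most of that gene's counts. A cuticle protein (HPB47_025106) was lower at the threshold with overlapping pools, at 218, 63.9 and 14.5 CPM in the control and 3.06, 5.25 and 30.97 CPM in the metalloprotease pools.

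Besides the receptor HPB47_008153 described above, the following genes were measured by RT-qPCR for this knockdown. The cytochrome P450 annotated as thromboxane-A synthase (HPB47_019282) had 15.4, 6.03 and 6.28 CPM in the control and 3.301, 0.617 and 1.71 CPM in the metalloprotease pools. Its groups did not overlap (log2 fold change −2.27 ± 0.69). Mediator subunit 13 (HPB47_027399), part of the module that keeps Mediator from the polymerase, had 32.98, 43.3 and 26.4 CPM in the control and 18.6, 19.4 and 19.9 CPM in the metalloprotease pools. The metalloprotease pools were close together and below the controls (log2 fold change −0.83 ± 0.31), but without the pools that stood apart the log2 fold change was −0.59 and no longer reached the unadjusted threshold. Ribonuclease T2 (HPB47_001654), an acidic RNase of lysosomes, had 0, 4 and 2 counts in the control and 22, 16 and 14 counts in the metalloprotease pools. It did not pass the count filter, and without the filter it was higher at the unadjusted threshold. Elongation factor 1-alpha was the reference gene to which the study scaled its RT-qPCR. Its main locus (HPB47_015871) had 129.7, 72.3 and 115 CPM in the control and 88.4, 67.6 and 155 CPM in the metalloprotease pools and a log2 fold change of −0.02 ± 0.40.

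Among the genes with the smallest p that carry no name, HPB47_006091 had 19, 3 and 0 counts in the control and 101, 290 and 2336 counts in the metalloprotease pools. Most of these reads came from metalloprotease pool 3, the deepest library. HPB47_004801 had 133, 59.4 and 149 CPM in the control and 853, 294 and 249 CPM in the metalloprotease pools. On the lower side HPB47_010653 had 3.72, 4.57 and 5.29 CPM in the control and 0.707, 1.54 and 1.14 CPM in the metalloprotease pools (log2 fold change −1.99 ± 0.54). HPB47_019623 had 35.5, 30.3 and 12.6 CPM in the control and 7.31, 0.617 and 3.64 CPM in the metalloprotease pools (log2 fold change −2.74 ± 0.76). Neither gene had overlapping groups. With a larger p, HPB47_016383 had 104, 88.9 and 38.7 CPM in the control and 10.1, 13.9 and 34.8 CPM in the metalloprotease pools (log2 fold change −1.96 ± 0.57). HPB47_021918 had 49.6, 4.201 and 39.3 CPM in the control and 1.18, 5.25 and 4.098 CPM in the metalloprotease pools, where GFP control pool 2 lay among the metalloprotease pools. Of the 50 higher genes 17 and of the 47 lower genes 19 had no Swiss-Prot name.

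The metalloprotease pools were set directly against the 3 pools with silenced antigen p23, a comparison without control libraries, in which the antigen p23 libraries held between 3303358 and 3636541 assigned reads. Of 6383 tested genes none passed the adjustment (0%), and 164 (2.57%) reached 0.05 before adjustment. The unnamed gene HPB47_006091 had 14, 0 and 6 counts in the antigen p23 pools, and was higher in the metalloprotease pools in this comparison too, with a log2 difference of 5.74. For 2-aminomuconic semialdehyde dehydrogenase (HPB47_024631) the antigen p23 pools held 0, 0 and 3 counts and the metalloprotease pools 77, 172 and 160, and the gene reached 0.05 before adjustment. For acireductone dioxygenase HPB47_013115 the antigen p23 pools held 50, 104 and 66 counts and the log2 difference was −0.09. For the insulin family gene HPB47_024016 they held 15, 38 and 122 counts, with a log2 difference of 0.34. Cysteine dioxygenase HPB47_000961 had 350, 356 and 205 counts there and a log2 difference of 0.15. For these last 3 genes a difference between the silenced groups was not detectable in these pools.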

How the data were processed

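Per the labels and the methods of the study, the authors aligned paired poly-A reads with Bowtie2 2.5.3 to the *I. persulcatus* genome (BIME_Iper_1.3) and counted them per gene with featureCounts, and deposited raw counts for 9 libraries. Counts were fitted as deposited with edgeR 4.0.16 in R 4.3.3 (default filter on low counts, TMM scaling, robust quasi-likelihood F test, group as the only term, 6 libraries) with Benjamini-Hochberg adjustment at 0.05 over all tested genes. The SE of a log2 fold change was its size divided by the square root of F. The study's methods used DESeq2, which was run here (version 1.42.0) as an alternative beside limma-voom (limma 3.58.1), other scaling and filters, the fit of all 9 libraries, the replicate number as a block, thinning of metalloprotease pool 3 to 3893710 counts and leaving out each pool. CPM values are counts scaled to library size after TMM scaling. Levels between genes were compared per kb of coding length, since 97.9% of the gene models have a length divisible by 3.

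Each library is 1 pool of 3 ticks, so p-values set the difference between groups against the spread between pools, not between single ticks. That spread was estimated for each gene with information shared across the tested genes. The 65 gene lists were drawn from names and domains in the table. Members and lists were chosen with earlier results of these data known. Named genes were drawn from the 15 with the smallest p in each direction, the 4 RT-qPCR genes and elongation factor 1-alpha, and reprolysins. In each list they were drawn from up to 4 members with the smallest p and the 3 with the highest CPM, with the 10 genes of highest CPM overall. Not every gene of these sets is named. The genes HPB47_023137, HPB47_011495, HPB47_000688, HPB47_013414, HPB47_008903, HPB47_001369, HPB47_011451, HPB47_010184, HPB47_010185, HPB47_028000 and HPB47_011079 fall outside that rule and were chosen after their values were seen. Columns of gene annotation were used for names, domains and positions only. A member of the insulin pathway list is not reported here by name.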

Additional observations from a re-analysis of the deposited data

How the results depend on the processing

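No gene passed an adjusted p of 0.05 in any of the 16 alternatives. The counts at an unadjusted p of 0.05, 50 higher and 47 lower by edgeR with all 6 pools, moved with the setting. They were 83 and 94 with no filter on low counts, where 659 genes had pools without overlap against 385, and 26 and 16 when all 9 libraries were fitted together. DESeq2 gave 104 and 78. Leaving out 1 pool at a time gave 31 to 147 higher and 37 to 97 lower genes, and leaving out GFP control pool 2 and metalloprotease pool 1 together, an alternative chosen after the data were seen, gave 142 and 111. With the replicate number as a block the counts were 35 and 20. The deviations of same-numbered pools from their group means had correlations of −0.41, −0.48 and 0.09, while GFP control pool 2 and metalloprotease pool 1 had 0.60. Deviations within a group depend on each other, and the latter pools set much of them. These correlations therefore cannot decide whether equal numbers mark a shared batch. The causes of these shifts were not tested. Over the lists with at least 5 tested members and these alternatives, 850 medians of a list under an alternative moved by less than the spread between pools and 46 by more. With 3 pools a side and a median SE of 0.44 on the log2 scale, small differences could not be resolved at this depth.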
